A study of Mus musculus with 14 samples.

Results

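Wfs1, Fibcd1, Nov, Pou3f1 and Mpped1 are 5 genes that mark the pyramidal neurons of hippocampal field CA1, and they are described here in every library of a study of mouse hippocampal tissue. They were taken by symbol from the deposited gene count table, where all 5 were found among 22485 genes, and all 5 were among the 13063 genes with enough counts to test. The study set tissue of 3 hippocampal subregions, CA1, CA3 and dentate gyrus (DG), that had been dissociated with enzyme against tissue that had been homogenised directly. All tissue came from the strain C57BL/6, with no transgene named, and in the authors' sample table the 14 libraries share 1 mouse, 1 sequencing job and 1 date. They are therefore separate tissue samples of 1 animal, and p-values measure only the spread between those samples. Control tissue was homogenised directly (3 CA1, 2 CA3 and 2 DG libraries). The other tissue (3 CA1, 2 CA3 and 2 DG libraries) was dissociated: 75 min with pronase, a protease mixture, at 1 mg/ml in artificial cerebrospinal fluid (aCSF), followed by vortexing, centrifugation and trituration in aCSF with 1% FBS (fetal bovine serum). Library totals ran from 1285654 to 6646655 counts in control tissue and from 65887 to 4782767 in dissociated tissue. CA1 dissociated replicates 2 and 3 and DG dissociated replicate 3 held fewer than 500000 counts.

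The hippocampus is a relay of cell fields: granule cells of the dentate gyrus contact CA3 pyramidal cells, which in turn contact CA1 pyramidal cells. Each field has its own set of genes, so that a marker gene can be read as a measure of which field a piece of tissue contained. Wfs1 encodes wolframin, a membrane protein of the endoplasmic reticulum that is widely used to outline CA1. Fibcd1 encodes a cell-surface receptor with a fibrinogen-like domain that binds acetylated sugars. Nov, now also called Ccn3, encodes a secreted protein of the extracellular matrix. Pou3f1, also known as Oct6, is a POU-domain transcription factor, and Mpped1 encodes a protein with a metallophosphoesterase domain. In bulk tissue a lower level of such a gene can mean fewer cells of the type or less of its RNA per cell, and these cannot be told apart.

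In GENCODE M21 (GRCm38) Wfs1 (ENSMUSG00000039474) lies at chr5:36966104-36989205 on the minus strand, and its main transcript has 8 exons. Fibcd1 (ENSMUSG00000026841) lies at chr2:31813290-31846005 on the minus strand, with 7 exons in 1 deposited transcript. Nov (ENSMUSG00000037362) lies at chr15:54745702-54754039 on the plus strand, with 5 exons. Pou3f1 (ENSMUSG00000090125) is a gene of 1 exon at chr4:124656807-124660655 on the plus strand. Mpped1 (ENSMUSG00000041708) lies at chr15:83779467-83858494 on the plus strand and has 11 deposited transcripts, more than any other of the 5 genes.

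The transcript tables bear on which start of Mpped1 was used. Of all estimated counts of Mpped1 over the 14 libraries, 88.1% were assigned to Mpped1-003 and 5.37% to Mpped1-001, which begins at another start. In the 7 libraries with at least 100 counts of the gene, the share of Mpped1-003 ran from 79.3% to 94.6%. The sequences before both starts are shown because they differ in composition, with that of Fibcd1, a gene of 1 deposited transcript, beside them. Each is the stretch from 250 to 51 bases before the start in RefSeq (GRCm38.p6), read 5′ to 3′ on the gene's strand, with GC boxes (GGGCGG or CCGCCC) in capitals. Their positions are chr15:83779773-83779972 (plus strand) for Mpped1-003, chr15:83784579-83784778 (plus strand) for Mpped1-001 and chr2:31846056-31846255 (minus strand) for Fibcd1.
Mpped1-003: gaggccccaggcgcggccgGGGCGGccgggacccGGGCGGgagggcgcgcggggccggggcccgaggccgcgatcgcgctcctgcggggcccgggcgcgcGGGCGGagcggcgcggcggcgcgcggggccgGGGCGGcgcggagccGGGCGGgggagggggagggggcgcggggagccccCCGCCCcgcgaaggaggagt
Mpped1-001: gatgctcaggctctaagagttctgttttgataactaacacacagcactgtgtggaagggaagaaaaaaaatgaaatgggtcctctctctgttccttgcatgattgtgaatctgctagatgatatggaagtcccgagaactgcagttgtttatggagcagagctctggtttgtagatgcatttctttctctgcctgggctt
Fibcd1: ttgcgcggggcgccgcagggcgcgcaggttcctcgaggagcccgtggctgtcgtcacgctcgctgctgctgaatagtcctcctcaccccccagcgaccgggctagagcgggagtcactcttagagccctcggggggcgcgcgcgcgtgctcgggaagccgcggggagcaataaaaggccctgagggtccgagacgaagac
The stretch before Mpped1-003 held 6 GC boxes and 40 CG dinucleotides and was 90.5% G or C. The stretch before Mpped1-001 held 0 GC boxes and 1 CG dinucleotide and was 43.5% G or C. That of Fibcd1 held 0 GC boxes and 25 CG dinucleotides, at 70.0% G or C. A GC box stood in 24.6% of 32851 promoter stretches of that length, and the median stretch held 4 CG dinucleotides. The TATA box TATAAA (9.14% of promoter stretches, either strand) occurred in none of the 3 stretches. The octamer ATGCAAAT (1.32%, either strand), the sequence bound by POU-domain factors such as Pou3f1, did not occur in them either. Bases nearer the start than 51 were not searched, so neither motif can be called absent from these promoters. The shares cover the same limited stretch. Of the 5 genes, 3 matched the RefSeq promoter table. The window of Wfs1 overlapped an annotated exon and is not printed.

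For Wfs1, 74.8% of the pooled estimated counts were assigned to Wfs1-001 and 25.0% to Wfs1-002. In the 8 libraries with at least 100 counts of Wfs1, the share of Wfs1-001 ran from 33.0% in CA3 dissociated replicate 1 to 100% in DG control replicate 3. The pseudoaligner divides reads of shared sequence among transcripts, so these shares are estimates, and their error was not analysed here.

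Before the genes are compared between regions, the labels of 3 libraries need to be set against their markers. The 5 genes together reached 2436, 2255 and 2552 CPM (counts per library, scaled to a common library size) in CA1 control replicates 1, 2 and 3, and 2325 and 1805 CPM in CA1 dissociated replicates 1 and 2. In CA1 dissociated replicate 3 they came to 62.7 CPM, or 19 counts (95% Poisson interval 37.7 to 97.9 CPM), which is 2.60% of the CA1 control mean. DG control replicates 2 and 3, at 95.3 and 80.0 CPM, lay within that interval, so this CA1 library held no more of the CA1 genes than DG tissue did.

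CA3 libraries were split in the same way. The sum was 1964 CPM in CA3 control replicate 1 and 1590 CPM in CA3 dissociated replicate 1, or 81.3% and 65.9% of the CA1 control mean. In CA3 control replicate 4 it was 758 CPM (31.4%), and in CA3 dissociated replicate 4 it was 64.1 CPM (2.66%). Within each treatment, therefore, the pair of CA3 libraries differed more from each other than the CA1 control libraries did among themselves. In dissociated tissue this was not particular to CA3, since the dissociated CA1 libraries ran from 62.7 to 2325 CPM.

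Some markers of CA3 pyramidal cells went the other way. They were Bok (a relative of the cell death regulator Bcl2), Grik4 (a kainate receptor subunit) and Cpne4 (a calcium-binding copine), 3 of the 7 tested genes on the list of CA3 markers, picked after their values were seen. The sum of all 7 gave a weaker contrast: it was 859 CPM in CA3 control replicate 1 and 778 CPM in CA3 dissociated replicate 1, against 824 to 908 CPM in CA1 control tissue and 1016, 1436 and 1102 CPM in CA3 control replicate 4, CA3 dissociated replicate 4 and CA1 dissociated replicate 3. Dkk3, a secreted Wnt modulator on that list, made up most of it in CA1 control tissue (771 to 842 CPM). The sum of Bok, Grik4 and Cpne4 was 16.5, 40.1 and 26.4 CPM in CA1 control replicates 1, 2 and 3, and 60.1 and 20.5 CPM in CA1 dissociated replicates 1 and 2. It was 502 CPM in CA1 dissociated replicate 3, with Bok at 205 CPM, Grik4 at 168 CPM and Cpne4 at 129 CPM. In CA3 it was 396 CPM in control replicate 4 and 812 CPM in dissociated replicate 4, but only 54.9 CPM in control replicate 1 and 94.99 CPM in dissociated replicate 1. CA1 dissociated replicate 3 therefore carried these 3 CA3 markers and had few counts of the CA1 genes. CA3 control replicate 1 and CA3 dissociated replicate 1 carried the CA1 genes and were low in these 3 CA3 markers. These 3 libraries go against their labels by the markers picked, and they are kept under their labels below, with the results they enter also given without them. The cut for this, 100 CPM of the 3 CA3 genes, was chosen after the data were seen. In the DG the same sum was 452 CPM in control replicate 2, 171 CPM in control replicate 3, and 172 and 215 CPM in dissociated replicates 3 and 4. These markers were thus also found in libraries labelled DG, and whether those pieces held CA3 cells was not tested. The cut was applied to CA1 and CA3 labels only. DG libraries held the most dentate granule markers, to unlike degrees. The 10 markers on that list summed to 717 and 2444 CPM in DG control replicates 2 and 3. In DG dissociated replicates 3 and 4 they summed to 687 and 2063 CPM, and elsewhere to at most 251 CPM. Of these, Prox1, the transcription factor of dentate granule cells, was between 104.8 and 351 CPM in the 4 DG libraries. It was at most 60.4 CPM in the others.

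**Figure D1:**
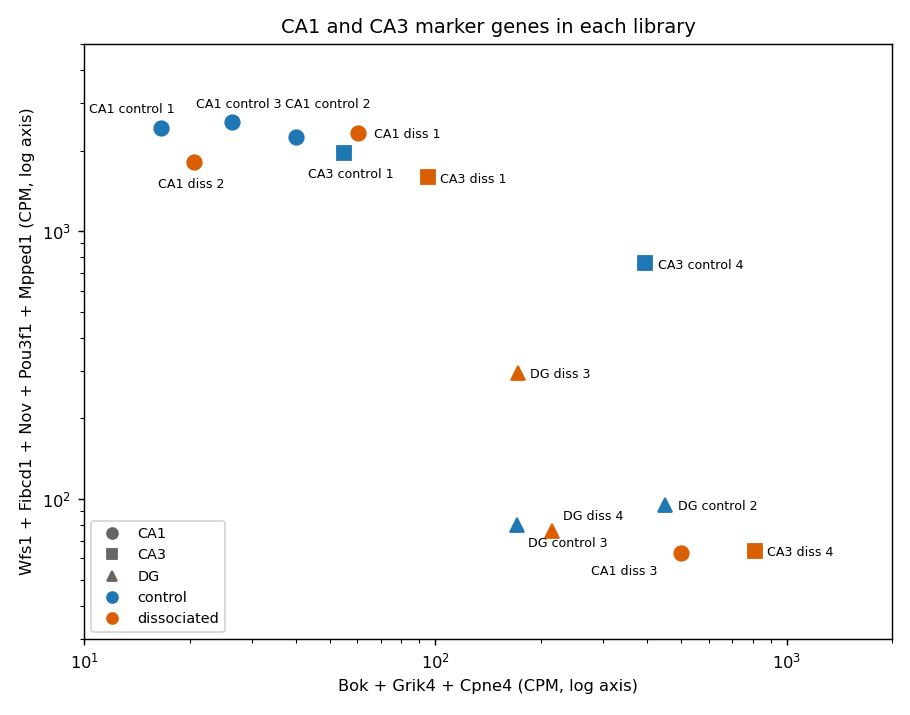
Summed CPM of the 5 CA1 genes (vertical, log axis) against the summed CPM of the CA3 markers Bok, Grik4 and Cpne4 (horizontal, log axis), 1 point per library, with the shape for the labelled region and the colour for the treatment. CA3 control 1 (1964 CPM) and CA3 diss 1 (1590 CPM) lie beside the CA1 libraries, and CA1 diss 3 (62.7 CPM) lies beside CA3 diss 4 (64.1 CPM).

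Wfs1 was highest in CA1, lower in CA3 and lowest in the DG in control tissue. It stood at 891, 540 and 959 CPM in CA1 control replicates 1, 2 and 3 (mean 797 ± 225, SD, n = 3) and at 178 and 118 CPM in CA3 control replicates 1 and 4 (148 ± 42.3, n = 2). In DG control replicates 2 and 3 it stood at 33.7 and 19.7 CPM (26.7 ± 9.92, n = 2). The 3 control groups did not overlap for Wfs1, in the order CA1, CA3, DG, and the share of all tested genes with groups so separated was not counted. CA3 control replicate 1, which resembled CA1 by its summed markers, held 22.4% of the CA1 control mean of Wfs1. After dissociation Wfs1 was at 533, 287 and 13.2 CPM in CA1 replicates 1, 2 and 3, at 142 and 19.5 CPM in CA3 replicates 1 and 4, and at 125 and 21.5 CPM in DG replicates 3 and 4. Those 3 groups overlapped. The DG value of 125 CPM rested on 8 counts in the shallowest library (95% Poisson interval 53.9 to 246 CPM).

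Fibcd1 was as high in some CA3 libraries as in CA1. CA1 control replicates 1, 2 and 3 held 498, 537 and 587 CPM (541 ± 44.7, n = 3), whereas CA3 control replicates 1 and 4 held 829 and 272 CPM (550 ± 394, n = 2). DG control replicates 2 and 3 held 25.7 and 35.9 CPM. The CA1 control range lay inside that of the CA3 controls, and both lay above the DG. In dissociated tissue Fibcd1 was at 595, 499 and 6.60 CPM in CA1 replicates 1, 2 and 3, and at 735 CPM in CA3 replicate 1. No count of Fibcd1 was found in CA3 dissociated replicate 4, which allows up to 3.43 CPM (upper end of the 95% Poisson interval). The DG dissociated libraries held 31.2 and 31.4 CPM. The highest Fibcd1 values of the series were thus in the 2 CA3 libraries that were low in Bok, Grik4 and Cpne4. The only 0 was in the library with the highest sum of these 3 markers. They were picked after their values were seen, and a relation with Fibcd1 was not tested.

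Nov had the lowest group means in the DG among the 5 genes in TPM (transcript abundance scaled for length and depth), at 0.951 TPM in control and 4.04 TPM in dissociated tissue. In CPM, CA1 control replicates 1, 2 and 3 held 248, 451 and 189 CPM (296 ± 137, n = 3), CA3 control replicates 1 and 4 held 118 and 42.9 CPM, and DG control replicates 2 and 3 held 1.47 and 1.12 CPM, from 2 and 7 counts. As with Wfs1, the 3 control groups did not overlap, with no share over all tested genes to set beside this. In CA1 dissociated replicates 1, 2 and 3 Nov was at 218, 451 and 3.30 CPM. CA3 dissociated replicates 1 and 4 held 59.6 and 4.65 CPM. DG dissociated replicate 3 held 15.6 CPM from 1 count. Replicate 4 held no count, which allows up to 6.10 CPM (upper end of the 95% Poisson interval). The secreted protein's gene was therefore close to the count floor in all 4 DG libraries.

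Pou3f1 stood at 300, 271 and 370 CPM in CA1 control replicates 1, 2 and 3 (314 ± 51.2, n = 3), at 294 and 108 CPM in CA3 control replicates 1 and 4, and at 8.80 and 11.5 CPM in DG control replicates 2 and 3. CA3 control replicate 1 lay within the CA1 range. In dissociated tissue it stood at 293, 185 and 13.2 CPM in CA1 replicates 1, 2 and 3, at 231 and 16.7 CPM in CA3 replicates 1 and 4, and at 31.2 CPM (2 counts) and no count in DG replicates 3 and 4.

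Mpped1 varied least among the CA1 control replicates 1, 2 and 3, at 499.5, 457 and 446 CPM (467 ± 28.2, n = 3). CA3 control replicates 1 and 4 held 545 and 217 CPM, and DG control replicates 2 and 3 held 25.7 and 11.8 CPM. Dissociated tissue held 686, 383 and 26.4 CPM in CA1 replicates 1, 2 and 3, 422 and 23.2 CPM in CA3 replicates 1 and 4, and 93.7 (6 counts) and 23.1 CPM in DG replicates 3 and 4. The Mpped1 value of CA1 dissociated replicate 1 was the highest of the series, and CA3 control replicate 1 came next.

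**Figure D2:**
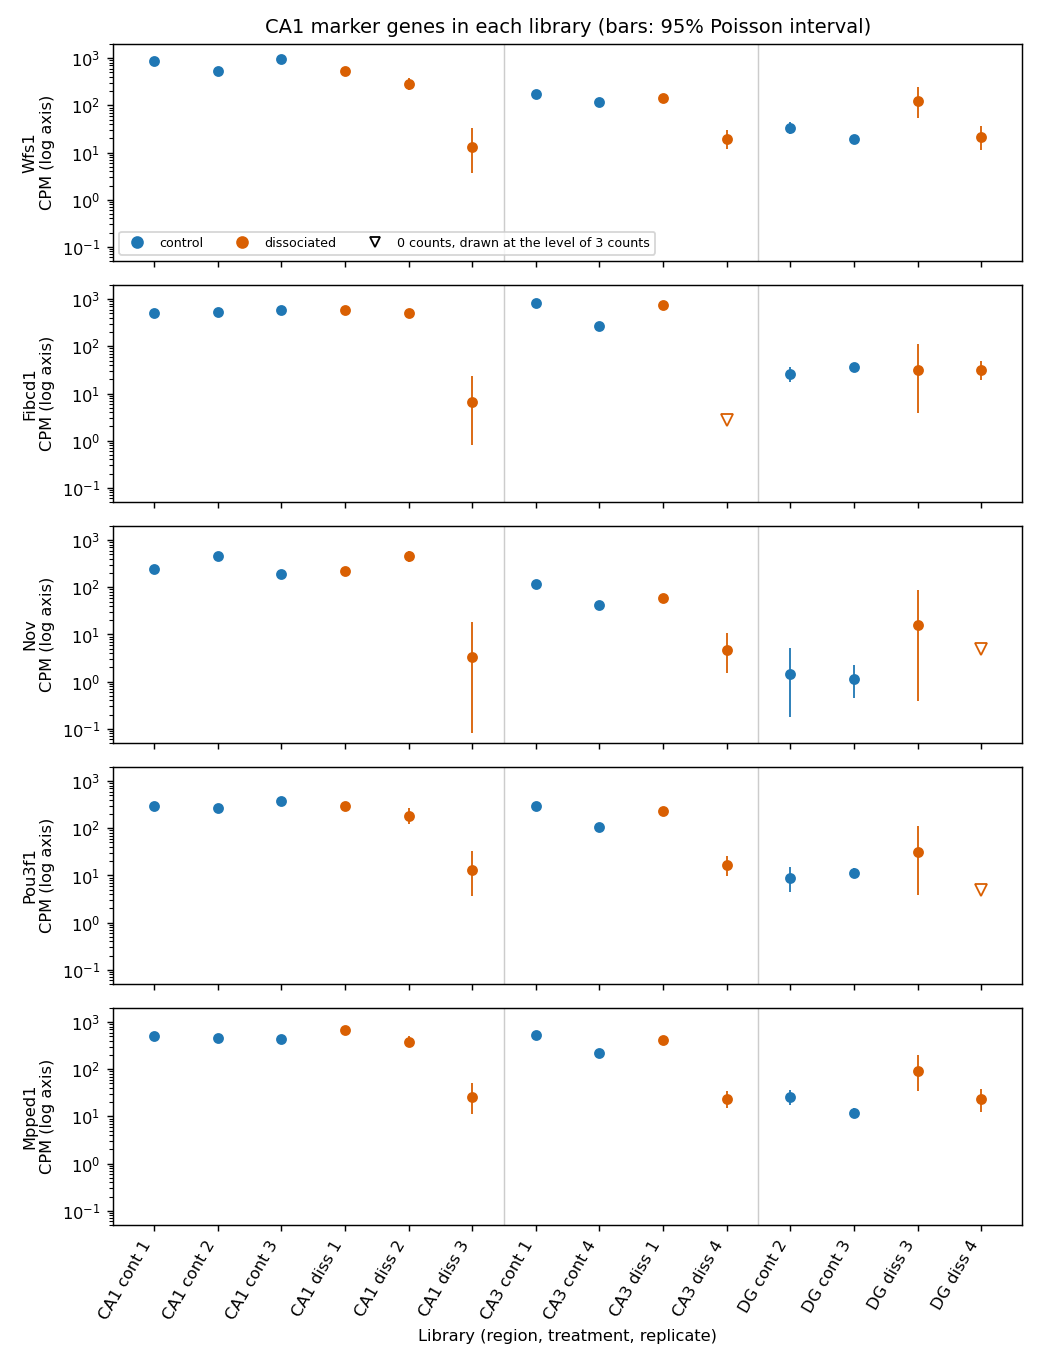
CPM (log axis) of Wfs1, Fibcd1, Nov, Pou3f1 and Mpped1 in each of the 14 libraries, with 95% Poisson intervals that cover counting error only; open triangles mark 0 counts, drawn at the level of 3 counts. CA1 diss 3 and CA3 diss 4 sit near the DG libraries in the panels of Wfs1, Nov, Pou3f1 and Mpped1. For Fibcd1 they sit below the DG libraries (6.60 CPM and 0 counts, against 25.7 to 35.9 CPM). In all 5 panels CA3 control 1 and CA3 diss 1 sit above CA3 diss 4.

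Compared per length, in TPM, Wfs1 led in CA1 control tissue (501 ± 148 TPM, n = 3), followed by Mpped1 (380 ± 28.6), Fibcd1 (258 ± 27.8), Nov (239 ± 107) and Pou3f1 (187 ± 35.6). The range of Nov (158 to 360 TPM) overlapped those of the other 4 genes, and the range of Wfs1 (333 to 613 TPM) overlapped that of Mpped1 (355 to 411 TPM). In the CA3 control libraries Mpped1 led instead, at 468 and 142 TPM in replicates 1 and 4, ahead of Fibcd1 at 415 and 112 TPM. Wfs1 was at 116 and 66.8 TPM there.

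The balance of Wfs1 and Fibcd1 differed between the CA1 control libraries and 3 of the 4 CA3 libraries, and the other CA3 library went the opposite way. This ratio was chosen after its values were seen and is given with no test. Of the counts of both genes, Wfs1 made up 64.1% (95% Clopper-Pearson interval 62.4 to 65.8%), 50.2% (49.0 to 51.3%) and 62.0% (60.4 to 63.7%) in CA1 control replicates 1, 2 and 3. In CA3 control replicates 1 and 4 it made up 17.7% (16.1 to 19.4%) and 30.3% (27.4 to 33.4%). In CA3 dissociated replicate 1 it made up 16.2% (14.7 to 17.9%). CA1 dissociated replicates 1 and 2 lay between these groups, at 47.2% (45.8 to 48.6%) and 36.5% (27.7 to 46.0%). The interval of CA1 dissociated replicate 2 overlapped that of CA3 control replicate 4. Both CA3 libraries that resembled CA1 by their summed markers had a Wfs1 share below that of every CA1 library. CA3 dissociated replicate 4, the library with the most CA3 markers, had 21 counts of Wfs1 and 0 of Fibcd1, a share of 100% (83.9 to 100%), above all CA1 libraries with more than 6 counts of both genes. DG shares ran from 35.45% in control replicate 3 to 80.0% in dissociated replicate 3, the latter from 8 counts of Wfs1 and 2 of Fibcd1. The share therefore did not separate the regions over all libraries. CA1 dissociated replicate 3 stood at 66.7% from 6 counts (22.3 to 95.7%). These intervals cover counting error only. The reads carried no molecular identifiers and are not independent, so the intervals can be too narrow even for that.

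**Figure D3:**
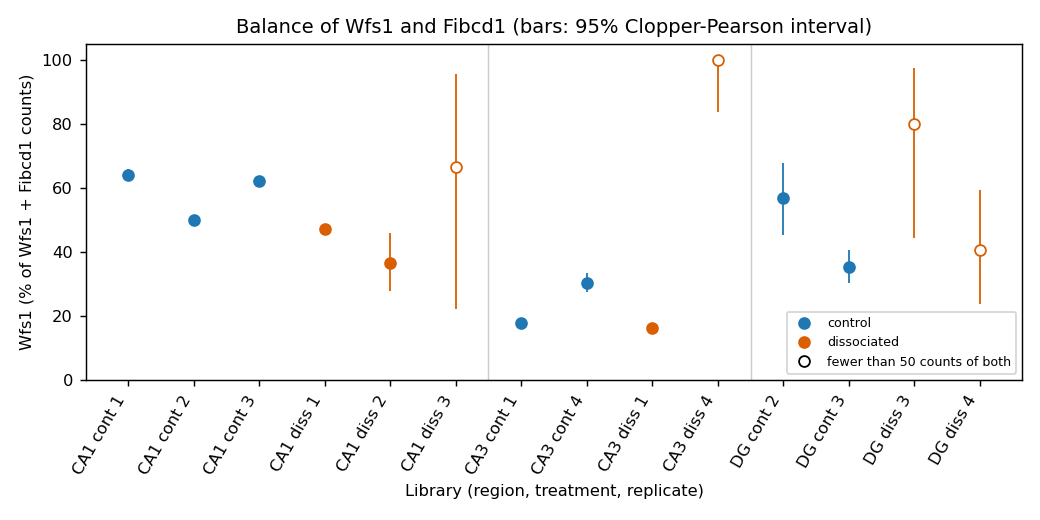
Wfs1 as a percentage of the counts of Wfs1 and Fibcd1 in each library, with 95% Clopper-Pearson intervals; open circles have fewer than 50 counts of both genes. The 3 CA1 control libraries lie between 50.2% and 64.1%, CA3 control 1 and CA3 diss 1 lie at 17.7% and 16.2%, and CA3 diss 4 lies at 100%.

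Which of the 5 genes separated CA1 from the dentate gyrus was asked with all 14 libraries and both factors, region and treatment, in 1 additive fit (edgeR quasi-likelihood test, Benjamini-Hochberg adjustment over all 13063 genes, called at an adjusted p under 0.05). All 5 were called higher in CA1, where 4.06% of all tested genes were called in either direction and 1.98% were higher in CA1. Nov, the secreted matrix protein's gene, was higher by 7.89 ± 1.10 (SE) on the log2 scale (adjusted p = 0.000194). The POU-domain factor Pou3f1 was higher by 4.97 ± 0.81 (adjusted p = 0.000906). Mpped1, Wfs1 and Fibcd1 were higher by 4.20, 4.10 and 3.92 (adjusted p = 0.00288, 0.00265 and 0.0219, edgeR). The 5 genes' median was 4.20, against −0.04 over all genes tested. In control tissue each of the 5 was higher in all 3 CA1 libraries than in both DG libraries. In dissociated tissue all 5 overlapped. How many of all tested genes were separated in this way was not counted. Without the 3 libraries that go against their labels, all 5 were called, at 8.14 for Nov, 5.35 for Pou3f1, 4.55 for Mpped1, 4.47 for Wfs1 and 4.32 for Fibcd1. Among those left out, CA1 dissociated replicate 3 held the lowest CPM of all CA1 libraries for each of the 5 genes. Larger differences without it were therefore fixed in advance. In dissociated libraries alone 0 of the 5 were called (15 of 9452 genes were), and in control libraries alone all 5 were called (764 of 12292 genes were). Without DG control replicate 3, the deepest DG library, Fibcd1 was no longer called (adjusted p = 0.0905).

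CA3 differed from the DG for 4 of the same genes, where 1.77% of tested genes were called and 0.888% were higher in CA3. Nov was higher by 5.64 ± 1.11 (adjusted p = 0.00856), Pou3f1 by 4.43 ± 0.82 (adjusted p = 0.00609), Fibcd1 by 3.93 ± 1.00 (adjusted p = 0.0438) and Mpped1 by 3.71 ± 0.82 (adjusted p = 0.0194, all edgeR). Wfs1, at 1.95 ± 0.76, did not pass (adjusted p = 0.256). The 2 CA3 libraries that carried the CA1 genes entered this comparison. In each treatment that library held more of each of the 5 genes than the other CA3 library did. Smaller differences without these 2 libraries were therefore fixed in advance. Without the 3 libraries against their labels, 2 of the 5 were called, Nov at 4.39 (adjusted p = 0.00871) and Pou3f1 at 2.93 (adjusted p = 0.0170), while Fibcd1 was at 1.99 and Mpped1 at 2.41 (adjusted p = 0.325 and 0.0895). The call of Fibcd1 remained in 4 of the 14 fits that each left out 1 library (in 10 its adjusted p ran from 0.051 to 0.21), and that of Mpped1 remained in 10 of 14. The call count was 1 without DG control replicate 3. CA1 and CA3 were both compared with the same DG libraries, so these 2 comparisons are not independent.

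Between CA1 and CA3, the comparison for which these genes serve as markers, 0 of the 5 were called with all 14 libraries under their labels. DESeq2 also called 0. Few genes were called in this comparison (15 of 13063, 0.115%, with 702 at an unadjusted p under 0.05). Nov and Wfs1 were higher in CA1 by 2.24 ± 0.64 and 2.15 ± 0.61 (adjusted p = 0.321 and 0.301), and both of their unadjusted p-values were under 0.05, at 0.00189 and 0.00175 (edgeR). Pou3f1 stood at 0.54 ± 0.55, Mpped1 at 0.49 ± 0.59 and Fibcd1 at −0.01 ± 0.74 (adjusted p = 1 for each). The median of the 5 was 0.54, against −0.06 over all genes tested. Wfs1 and Nov were also the genes of the 5 whose control libraries did not overlap between CA1 and CA3. The share of all tested genes without such overlap was not counted.

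The result depended on the libraries that go against their labels. Without them, Wfs1 was called at 3.35 (adjusted p = 0.00825), Nov at 3.75 (adjusted p = 0.00423) and Pou3f1 at 2.42 (adjusted p = 0.0304, edgeR), in a fit that called 112 of 13802 genes. Mpped1 and Fibcd1 were at 2.14 and 2.33 (adjusted p = 0.147 and 0.286). These libraries were left out by their CA3 markers, in view of the values compared here, and CA3 then held 1 library per treatment, so this is a description of the remaining libraries. Without CA1 dissociated replicate 3 alone, Wfs1 was called at 2.43 (adjusted p = 0.0124) and Nov at 2.45 (adjusted p = 0.0203, edgeR). That library held the lowest Wfs1 and Nov of the CA1 libraries, so larger differences without it were fixed in advance. In control libraries alone Wfs1 was called at 2.45 (adjusted p = 0.0498), and Nov, at 1.91, was not (adjusted p = 0.231).

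**Figure D4:**
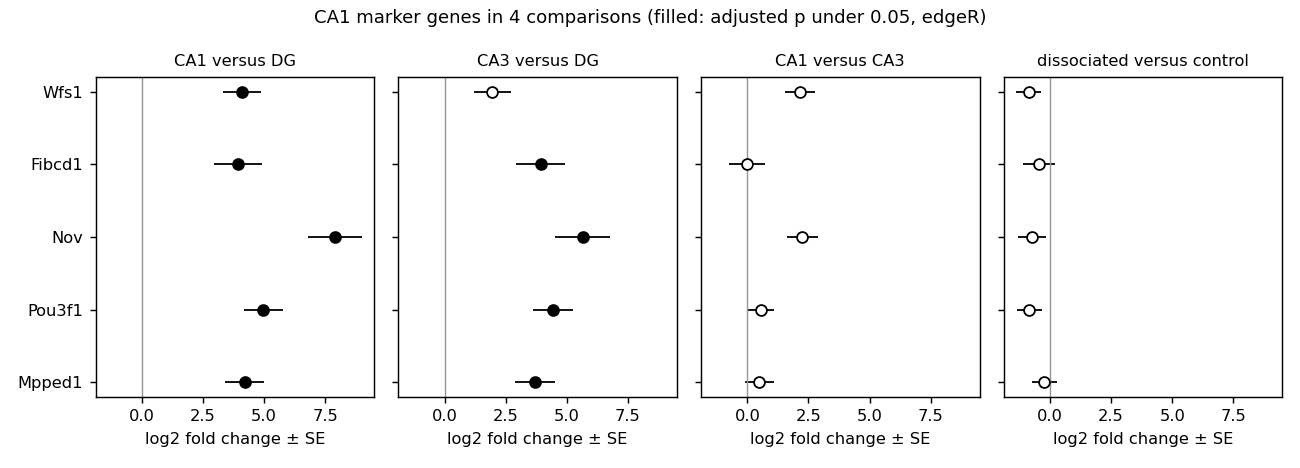
Log2 fold change ± SE of the 5 genes in 4 comparisons over all 14 libraries, filled where the edgeR adjusted p is under 0.05. All 5 are filled for CA1 versus DG, 4 for CA3 versus DG, and none for CA1 versus CA3 or for dissociated versus control tissue.

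Dissociation was the treatment the study set out to compare. Across the 3 regions 0 of the 5 genes were called, with edgeR or with DESeq2, where 0.773% of tested genes were called. Wfs1 stood at −0.87 ± 0.51, Pou3f1 at −0.85 ± 0.51, Nov at −0.74 ± 0.58, Fibcd1 at −0.45 ± 0.66 and Mpped1 at −0.23 ± 0.53 (adjusted p from 0.509 to 0.899). None of the 5 had an unadjusted p under 0.05. Their median was −0.74, against −0.11 over all genes tested.

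Within CA1, 0 of the 5 were called by edgeR or DESeq2 either, where 0.191% of tested genes were. Wfs1 was the only one whose dissociated libraries all lay below the control libraries (13.2 to 533 CPM against 540 to 959 CPM). How many of all tested genes did so was not counted. The difference of Wfs1 was −1.47 ± 0.72 (adjusted p = 0.455, edgeR). Pou3f1 stood at −0.88 ± 0.74, Fibcd1 at −0.55 ± 1.00, Nov at −0.47 ± 0.78 and Mpped1 at −0.32 ± 0.76. Without CA1 dissociated replicate 3 these differences shrank or turned: Wfs1 was at −0.92 and Pou3f1 at −0.35, and Fibcd1, Nov and Mpped1 were at 0.02, 0.12 and 0.22, none called. That library held the lowest CPM of all CA1 libraries for each of the 5 genes, so a rise without it was fixed in advance. It was also the one labelled CA1 that carried the picked CA3 markers, and the part of this in the differences was not tested.

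In CA3 and in the DG the treatment moved 0 of the 5 past the threshold, by edgeR or DESeq2, with 0.0% of tested genes called in CA3 (523 at an unadjusted p under 0.05) and 0.161% in the DG. All 5 log2 differences were negative in CA3, from −1.24 ± 0.97 for Nov to −0.57 ± 1.20 for Fibcd1. In the DG they ran from −1.58 ± 2.03 for Pou3f1 to 1.10 ± 1.31 for Mpped1. The difference between CA1 and CA3 in the response to dissociation was tested as an interaction, and 0 of the 5 were called by edgeR or DESeq2, with 0.0% of tested genes called (290 at an unadjusted p under 0.05). Without the 3 libraries against their labels, CA3 held 1 control and 1 dissociated library, and Fibcd1 (272 CPM against no count) was the gene called both for treatment in CA3 (adjusted p = 0.000105) and for the interaction (adjusted p = 0.00025, edgeR). In that fit 4 of 13802 genes were called for treatment in CA3 and 1 of 13802 for the interaction. That call assumes that a lone library varies as the other groups do.

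Oligodendrocyte and microglia markers were higher in dissociated tissue. Of 8 oligodendrocyte markers, 8 were called higher in dissociated tissue (median log2 difference 1.94), and of 8 microglia markers 6 were (median 1.69). Over all tested genes 0.773% were called for treatment. Between regions, 2 of the 8 oligodendrocyte markers were called lower in CA1 than in CA3, where 0.115% of all tested genes were called. Likewise 2 of the 8 were called lower in CA1 than in the DG, where 4.06% of all tested genes were called. Between CA3 and the DG 0 of the 8 were called, and 0 of the microglia markers were called between any regions. Of 7 astrocyte markers, 0 were called for treatment or between regions. Summed oligodendrocyte markers, such as the myelin gene Mbp, ran from 587 to 764 CPM in CA1 control tissue and from 1344 to 5689 CPM in CA1 dissociated tissue. They ran from 3273 to 3310 CPM in CA3 control tissue and from 11028 to 12184 CPM in CA3 dissociated tissue. Summed microglia markers ran from 257 to 474 CPM and from 1264 to 1970 CPM in CA1 control and dissociated tissue. All of these markers were above 0 as a sum in every library, and their part in the levels of the 5 genes was not tested. Excitatory neuron markers, at 7595 to 7923 CPM in CA1 control and 6223 to 10654 CPM in CA1 dissociated tissue, had 0 of 5 members called for treatment.

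Of 10 further genes on the list of CA1 markers, 9 could be tested, and 6 of them were higher in CA1 than in the DG, among them Lefty1, a secreted signalling inhibitor (6.10), Spink8, a protease inhibitor (5.04), Gpr161, an orphan receptor (4.99), Man1a, a mannosidase of the glycan pathway (4.26), and Itpka, an inositol phosphate kinase (1.65). Etv1 (1.47), Ndst4 (0.89) and Zbtb20 (−0.96) did not pass. Of the 9, 5 were higher in CA3 than in the DG, 0 were called between CA1 and CA3 and 0 between dissociated and control tissue (edgeR; all 9 log2 differences for treatment were below 0, from −1.41 to −0.43). Spink8, Lefty1 and Gpr161 had no count in CA1 dissociated replicate 3. Spink8 at 59.6 CPM was at its highest in CA3 control replicate 4, above the CA1 control range of 29.5 to 53.7 CPM. The same library held the highest levels of the CA2 markers Amigo2 (91.7 CPM, against 1.34 to 3.40 CPM in CA1 control tissue) and Rgs14 (365 CPM, against 145 to 197 CPM). CA2, a narrow field between CA3 and CA1, was not a labelled region of the study, and its part in the 31.4% of CA1 genes in that library was not tested.

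The genes whose pattern over the 14 libraries was most like the mean of the 5 were sought among 11509 genes averaging 5 CPM or more, by Pearson's r of log2 CPM. All points came from 1 mouse and fell into a high and a low set of libraries, so these values describe likeness and carry no test. Among the 8 highest were Zdhhc2, a palmitoyltransferase (r = 0.974), the tetraspanin Tspan13 (0.958), the prion protein gene Prnp (0.957), 3110035E14Rik (0.952), the insulin-like growth factor binding protein Igfbp4 (0.948), Gpr161 (0.942) and the LIM-domain binding factor Ldb2 (0.942). The lowest were Rph3a, which encodes the synaptic vesicle protein rabphilin (−0.964), the neuronal calcium sensor Ncald (−0.923), the cadherin Cdh9 (−0.902) and Lhfpl2 (−0.902). When the 3 libraries under 500000 counts were left out, 3 of the 8 highest (Zdhhc2 and Tspan13 among them) and 1 of the 4 lowest (Rph3a) were still in those positions.

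The 5 genes also differed in what they most resembled. Wfs1 and Mpped1 shared Zdhhc2 as their nearest gene (r = 0.953 and 0.974). Fibcd1 was nearest to Igfbp4 (0.969) and Gpr161 (0.960), Nov to Prnp (0.963) and Pou3f1 to Gm2115 (0.979). Among the 5, the nearest pair over 14 libraries was Nov and Mpped1 (r = 0.949), and the farthest was Fibcd1 and Pou3f1 (0.761). Over the 11 deeper libraries the latter pair stood at 0.738.

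**Figure D5:**
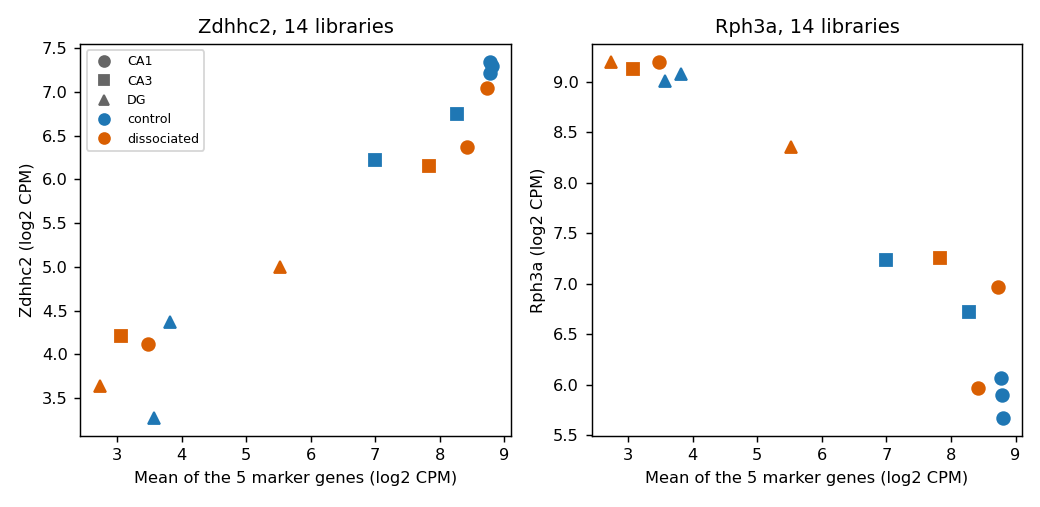
Log2 CPM of Zdhhc2 (left) and Rph3a (right) against the mean log2 CPM of the 5 CA1 genes, 1 point per library, with the shape for the labelled region and the colour for the treatment. Zdhhc2 rises (r = 0.974) and Rph3a falls (r = −0.964) across the 14 libraries.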

How the data were processed

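RNA from 14 tissue samples of mouse hippocampus was sequenced on an Illumina HiSeq. The submitters' processing notes name kallisto, cutadapt, FastQC and DESeq2 and give no version; no source used here gives the genome build, annotation or strand. The authors deposited a table of whole-number counts per gene symbol and, per sample, transcript tables of estimated counts and TPM (scaled for length and depth) from kallisto, per the file headers. Counts of 13063 genes that passed filterByExpr on the 6 groups (minimum count 10, minimum total 15) were scaled with TMM and tested with edgeR 4.0.16 in R 4.3.3 (quasi-likelihood F test, Benjamini-Hochberg adjustment). Regions and the overall treatment came from an additive model; treatment within regions and the interaction were contrasts of the 6 group means. Standard errors were derived from the F statistic. CPM are counts divided by the scaled library size. TPM per gene are the sum over the deposited transcripts.

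The 5 genes and the marker lists were chosen with earlier results of these data known. All 5 genes are named; list members are examples; genes of like pattern are the 8 highest and 4 lowest by Pearson's r with the mean of the 5 (log2 CPM, prior count 2), and the nearest genes of each; a few genes chosen this way are not reported here. Depth ran from 65887 to 6646655 counts per library, and 3 counts, the floor for a count of 0, equal 46.8 CPM in the shallowest and 0.444 CPM in the deepest library. Gene identifiers were looked up in GENCODE M21 (GRCm38) for coordinates. The fits were tested on simulated data. DESeq2 1.42.0, limma 3.58.1 on log2(TPM + 1), other scaling, no filter, a replicate block and left-out libraries were the alternatives. Whether the replicate numbers pair the samples was checked from the deviations of same-numbered samples from their group means.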

Additional observations from a re-analysis of the deposited data

How the results depend on the processing

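Of the calls, those between CA1 and DG depended least on single libraries. The number of all genes called also moved between fits, so a moved count cannot be read as particular to the 5 genes. For treatment in the DG it was 21 of 13063 genes in the main fit, with 0 of the 5 genes called. It was 261 of 17386 without a filter on low counts and 432 of 13762 without the 3 libraries under 500000 counts. The counts of genes called out of the 5 moved as follows. CA1 versus CA3 (0) gave 2 without a filter on low counts, 1 without the 3 libraries under 500000 counts, 1 in control libraries only and 3 without the libraries against their labels. CA1 versus DG (5) gave 2 with limma on log2(TPM + 1) and 0 in dissociated libraries only. CA3 versus DG (4) gave 0 with limma on log2(TPM + 1), 0 in dissociated libraries only and 2 without the libraries against their labels. Treatment overall and treatment in CA1 (0 each) gave 1 each without a filter, in both cases Wfs1. Treatment in CA3 and the interaction (0 each) gave 1 each without the libraries against their labels. Leaving out 1 library at a time gave 0 to 2 for CA1 versus CA3, 4 to 5 for CA1 versus DG, 1 to 4 for CA3 versus DG and 0 for the other comparisons.

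The log2 difference of Fibcd1 between CA1 and CA3, near 0, changed sign with RLE size factors (0.0145), without a filter (0.0229), with DESeq2 (0.0142), on log2(TPM + 1) (0.96), without shallow libraries (0.28), in dissociated libraries only (0.038) and without the libraries against their labels (2.33). Leaving out 1 library at a time it ran from −0.39 to 0.88. Mpped1 for treatment was at 0.10 with DESeq2 and ran from −0.60 to 0.0746. In CA1, without shallow libraries, treatment gave 0.17 for Fibcd1 and 0.59 for Mpped1, and without the libraries against their labels it gave 0.0401 for Fibcd1, 0.11 for Nov and 0.24 for Mpped1. Leaving out 1 library at a time gave −1.20 to 0.025 for Fibcd1, −1.24 to 0.12 for Nov and −1.30 to 0.22 for Mpped1. The cause was not tested beyond the libraries named.

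Same-numbered samples showed no clear pairing: over 6 such pairs the correlation of deviations ran from −0.19 to 0.08. In groups of 2 libraries the deviations mirror each other, so both CA3 pairs gave the same value (0.0785). The check therefore cannot decide whether the numbers pair the samples. With a replicate block, CA3 versus DG gave 2 calls and Fibcd1 between CA1 and CA3 was at 0.32. Depth limited the DG and CA1 dissociated values most.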

Other observations

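Within the CA1 control libraries, Nov and Wfs1 were ordered in opposite ways. Replicate 2, the deepest library, had the most Nov (451 CPM) and the least Wfs1 (540 CPM), and replicate 3 had the least Nov (189 CPM) and the most Wfs1 (959 CPM). Counts of Nov were 0.828, 1.67 and 0.51 times those of Pou3f1 in replicates 1, 2 and 3. In CA1 dissociated replicate 2 the ratio was 2.44, the highest of the series. These are values of single tissue samples with no test.

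DG control replicate 2 held the pan-pyramidal gene Neurod6 at 177 CPM, close to the 210 to 224 CPM of CA1 control tissue, and DG control replicate 3 held 1.28 CPM. The 5 CA1 genes in that DG library summed to 95.3 CPM, whereas Bok was at 210 CPM and Cpne4 at 141 CPM.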
